A study of Arabidopsis thaliana with 30 samples.

Results

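Shoots of abscisic acid (ABA) deficient aba2-3 seedlings were compared with shoots of the wild type Col-0 under mock treatment. The 6 libraries used here, of 30 in the series, were the 3 labelled aba2-3 mock shoot and the 3 labelled Col-0 mock shoot. All seedlings of Arabidopsis thaliana were 5 d old. They had been stratified for 2 d at 4 °C, given 24 h of light and then kept 4 d in darkness at 22 °C on medium with 0.5% sucrose. Mock treatment was 2 h in liquid medium with ethanol, the solvent of the hormones, under a green safe light, and shoot and root were cut apart at their junction. Other libraries of the same design were used to see the same genes elsewhere. These were aba2-3 and Col-0 shoots after 10 µM indole-3-acetic acid (IAA, an auxin), mock roots of both genotypes, and Col-0 roots and shoots after 10 µM ABA, with 3 libraries in each group. No aba2-3 library received ABA. The labels describe aba2-3 as a single mutant line with no complemented line beside it. They do not say whether replicates came from separate cultures, so p-values measure the spread between samples. That spread was estimated per gene over all 30 libraries.

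ABA is a plant hormone of seed maturation, dormancy and water stress. The PYR/PYL receptors bind it and then inhibit the clade A PP2C phosphatases, which frees SnRK2 kinases to phosphorylate transcription factors of the ABF family. Those factors bind ABA-responsive elements in promoters, and PP2C genes are themselves among the targets, while several receptor genes are repressed. ABA2 encodes the short-chain dehydrogenase that turns xanthoxin into abscisic aldehyde. A shoot grown in darkness consists of a long hypocotyl, an apical hook and closed cotyledons without green plastids.

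The deposited counts summed to between 22974826 and 99263091 per mock shoot library. Levels are given as CPM, a count scaled to a common library total, on TMM-scaled library sizes. Col-0 replicate 1 stood apart from the other 5 libraries. Its log2 CPM values correlated with those of the other Col-0 libraries at r = 0.972 and 0.974, against 0.990 to 0.993 for the other pairs within a group. Signature genes of each organ were defined in the aba2-3 IAA libraries alone. The median of 338 shoot-signature genes was at 39.8% of its shoot level in Col-0 replicate 1 and at 93.5% to 127% in the other 5. The median of 43 root-signature genes was at 3.62%, 1.38% and 2.69% of its root level in Col-0 replicates 1 to 3 and at 3.48%, 2.87% and 4.71% in aba2-3 replicates 1 to 3. The most abundant gene was PYK10, a root and hypocotyl beta-glucosidase, in Col-0 replicate 1 and CAB1, a chlorophyll-binding protein, in the other 5. Values without that library are given beside the results it changed.

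The level of ABA2 itself (AT1G52340, chromosome 1, 19489794 to 19491648, minus strand) was examined first. It was 10.0, 11.5 and 11.1 CPM in the Col-0 libraries and 8.68, 10.0 and 11.3 CPM in the aba2-3 libraries. The groups overlapped, and the log2 difference was −0.12 (SE 0.20, edgeR adjusted p = 0.865). A count over the whole gene does not show a mutation inside the transcript, so this level does not check the genotype labels. Of the 17 tested genes among the nearest 10 on each side of ABA2, 0 were called by edgeR or DESeq2, and 1 had an unadjusted p under 0.05.

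A small part of the shoot transcriptome passed the threshold for a difference between the genotypes. A gene was called when its Benjamini-Hochberg adjusted p in edgeR's quasi-likelihood test over all genes was under 0.05. By that rule 583 of 22156 genes (2.63%) were called, 189 higher in aba2-3 (0.853%) and 394 lower (1.78%). DESeq2 called 1190 (5.37%), 396 higher (1.79%) and 794 lower (3.58%). In edgeR 3127 genes (14.1%) had an unadjusted p under 0.05, so the full extent of the difference is not set by these calls. Most changes were moderate. The median size was 1.95-fold for the genes called higher and 1.9-fold for those called lower, and 90 and 160 of them differed at least 2-fold. In 569 of the 583 the 3 aba2-3 libraries did not overlap the 3 of Col-0, against 23.7% of all genes tested. The calls rest on these same libraries, which favours such separation, so the count is no added support. The number of calls depended on single libraries. It was 269 without Col-0 replicate 1 (1.21%), of which 96 were higher (0.433%) and 173 lower (0.781%), and 89 without both that library and aba2-3 replicate 3 (0.402%). It was 172 without aba2-3 replicate 2 and 143 without aba2-3 replicate 3. In all, 123 genes (37 higher, 86 lower) were called in each of the 6 fits that left out 1 library. With only the compared groups fitted, 291 were called, among them 184 of the 583, and 25 of the 64 named genes lost their call. The direction of all 583 was kept in the leave-one-out fits but for 1 gene without aba2-3 replicate 2. Bulk libraries cannot tell fewer cells of a type from less RNA per cell, which holds for every gene below.

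Among the ABA receptors 1 of 10 tested genes rose and 0 fell, with 0 lower also in DESeq2 and at an unadjusted p under 0.05. The median of the list was 0.10 on the log2 scale, where the median of all genes tested was 0.01. The gene was PYL6, a receptor of the monomeric class. Its level was 33.2, 29.8 and 36.1 CPM in Col-0 and 71.1, 73.4 and 72.9 CPM in aba2-3. Every aba2-3 library lay at about the same level, well above every Col-0 library (log2 fold change 1.13, SE 0.25, edgeR adjusted p = 0.0118). PYL6 was also higher in aba2-3 after IAA (1.52, edgeR adjusted p = 0.00200) and in mock roots (1.52, edgeR adjusted p = 6.50e-04), and lower after ABA in Col-0 roots (−4.38, edgeR adjusted p = 2.71e-11). It passed narrowly, with an adjusted p of 0.0508 to 0.0581 when Col-0 replicate 2, aba2-3 replicate 2 or aba2-3 replicate 3 was left out. PYL4, another receptor, had 507, 583 and 538 CPM in Col-0 and 471, 540 and 512 CPM in aba2-3, which overlap.

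The clade A PP2C phosphatases are the negative regulators next in the pathway. Of the 9, 4 fell and 0 rose, with a median log2 fold change of −0.75, and 0 rose in DESeq2 or at an unadjusted p under 0.05. PP2CA had 23.7, 19.3 and 21.5 CPM in Col-0 and 9.30, 9.72 and 9.94 CPM in aba2-3. The groups were far apart relative to their spread (−1.15, SE 0.15, edgeR adjusted p = 6.40e-05), and the call held in each fit that left out 1 library. HAI1 had 5.14, 2.52 and 2.7 CPM against 0.816, 0.636 and 0.414 CPM (−2.43, SE 0.53, edgeR adjusted p = 0.0120). ABI2 (−1.01) and HAB1 (−0.75) made up the 4, and HAB1 missed the threshold also without Col-0 replicate 2 (edgeR adjusted p = 0.0596). ABI1, another member of the family, had 127, 150 and 157 CPM against 132, 129 and 120 CPM, with overlapping groups (−0.19, edgeR adjusted p = 0.655). HAI1 and ABI2 missed the threshold without Col-0 replicate 1 (edgeR adjusted p = 0.0743 and 0.162), which left 2 of the 9 called, and PP2CA alone was called without aba2-3 replicate 2 or replicate 3. With the compared groups fitted alone, HAB1 and ABI2 were not called (edgeR adjusted p = 0.0911 and 0.0614). Of the SnRK2 kinases, 0 of 10 were called, with 1 lower at an unadjusted p under 0.05 and 1 lower in DESeq2. That was SNRK2.5, at 48.3, 49.1 and 35.6 CPM in Col-0 and 20.9, 22.4 and 27.5 CPM in aba2-3 (−0.91, SE 0.26, edgeR adjusted p = 0.0557).

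Of 24 transcription factors and their binding partners in the ABA response, 5 fell and 0 rose (0 also in DESeq2 and at an unadjusted p under 0.05), and 19 had a negative log2 fold change. The median was −0.42. The clearest were AFP1 and AFP3, members of the ABI5-binding protein family, which acts as a brake on ABA signalling. AFP3 had 74.7, 63.9 and 62.1 CPM in Col-0 and 31.5, 33.1 and 22.7 CPM in aba2-3 (−1.20, SE 0.15, edgeR adjusted p = 4.23e-05). AFP1 had 18.2, 16.0 and 9.97 CPM in Col-0 and 5.45, 5.09 and 5.01 CPM in aba2-3 (−1.51, SE 0.19, edgeR adjusted p = 4.46e-05). ABF3, a bZIP activator of ABA-responsive genes, had 97.1, 109 and 107 CPM against 61.2, 64.6 and 38.1 CPM (−0.93, SE 0.17, edgeR adjusted p = 0.00271). In these 3 genes the genotypes did not overlap, and the calls held in each fit that left out 1 library. With the compared groups fitted alone, ABF3 was not called (edgeR adjusted p = 0.0807), nor was AFP4 (0.131). GBF3, a G-box-binding bZIP factor (−0.92), and AFP4 (−0.79) also fell. AFP4 missed the threshold without Col-0 replicate 1 (edgeR adjusted p = 0.0520) or aba2-3 replicate 3 (0.0581), and GBF3 was called in 3 of the 6 fits. The bZIP factor ABI5 was at 5.14, 6.21 and 4.71 CPM in Col-0 and at 4.28, 3.86 and 3.5 CPM in aba2-3 (−0.47, edgeR adjusted p = 0.407). The genes of the pathway that were called are plotted by library in the dot plot of ABA pathway levels.

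**Figure D1:**
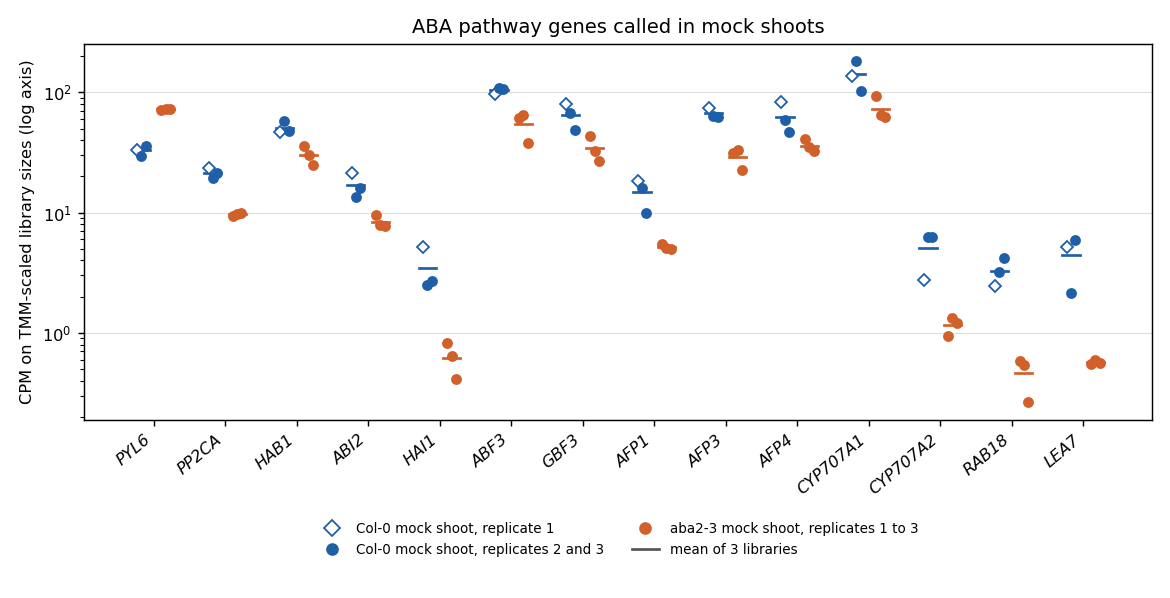
Levels of 14 ABA pathway and ABA-responsive genes called in mock shoots, in CPM on a log axis. Each point is a library, bars are means of 3, and open diamonds mark Col-0 replicate 1. PYL6 is higher in aba2-3 (71.1 to 73.4 CPM against 29.8 to 36.1 CPM), and the other 13 are lower with no overlap between the genotypes.

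Upstream sequence is printed to show where the core of the ABA-responsive element lies. The 6 lower named genes with the smallest adjusted p were taken, and those whose window held no annotated exon are printed. The windows left out, of AT3G01345, AT2G37870 and AT3G23470, held 0 matches. Windows are the 250 bases before the RefSeq gene start (TAIR10.1), written 5′ to 3′ on the gene's strand, with each match to ACGTGNC on either strand in capitals. Matches may overlap. AFP3 (chr3:11384146-11384395, minus strand) has 4 matches, AFP1 (chr1:26038655-26038904, plus strand) has 2, and AT3G53980 (chr3:19988464-19988713, minus strand), a lipid-transfer-like gene that fell most strongly among the 3, has 0.
AFP3: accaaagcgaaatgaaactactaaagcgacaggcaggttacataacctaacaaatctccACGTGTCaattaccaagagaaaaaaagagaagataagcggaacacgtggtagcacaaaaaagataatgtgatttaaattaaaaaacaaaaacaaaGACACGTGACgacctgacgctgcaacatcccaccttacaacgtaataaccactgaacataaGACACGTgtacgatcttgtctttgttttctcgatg
AFP1: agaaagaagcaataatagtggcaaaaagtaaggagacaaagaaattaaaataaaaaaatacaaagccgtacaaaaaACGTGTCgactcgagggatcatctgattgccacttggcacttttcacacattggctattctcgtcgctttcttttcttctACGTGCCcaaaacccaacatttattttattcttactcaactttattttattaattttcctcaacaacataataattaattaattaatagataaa
AT3G53980: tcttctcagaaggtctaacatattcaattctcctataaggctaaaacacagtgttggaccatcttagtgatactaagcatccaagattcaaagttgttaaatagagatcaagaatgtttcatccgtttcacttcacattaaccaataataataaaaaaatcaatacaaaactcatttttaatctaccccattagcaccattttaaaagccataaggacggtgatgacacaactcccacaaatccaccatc
The AFP3 window holds a pair of overlapping matches on opposite strands, which share the central ACGT. Such windows held the motif for 72 of the 394 genes called lower (18.3%), for 10 of the 189 called higher (5.29%) and for 2099 of 22008 tested genes with a window (9.54%). With the gene starts of the deposited tables in place of those of RefSeq, the shares were 23.6%, 6.88% and 11.6%. Among the named genes PP2CA, LEA7 and the clock gene PRR9 had 3 matches and CCA1 had 2. The ABA-list genes HAI1, ABI2, ABF3, AFP4, CYP707A2 and PYL6 had 0, as did XTH5. The shares describe letters in these windows, not binding.

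Genes of ABA synthesis were not called: 0 of 9 tested passed in edgeR, and 0 passed in DESeq2 or at an unadjusted p under 0.05. NCED3, the dioxygenase induced by drought, had 17.3, 13.6 and 18.2 CPM in Col-0 and 13.6, 14.7 and 15.6 CPM in aba2-3, which overlap. Of 7 tested genes of ABA breakdown and conjugation, 2 fell and 0 rose (0 also in DESeq2 and at an unadjusted p under 0.05). Both encode ABA 8′-hydroxylases. CYP707A1 had 137, 182 and 103 CPM in Col-0 and 93.0, 64.3 and 62.0 CPM in aba2-3 (−0.95, SE 0.21, edgeR adjusted p = 0.0143). CYP707A2 had 2.77, 6.31 and 6.22 CPM against 0.946, 1.32 and 1.21 CPM (−2.15, SE 0.49, edgeR adjusted p = 0.0150). Neither pair of groups overlapped, and both calls missed the threshold without Col-0 replicate 2 (edgeR adjusted p = 0.0941 and 0.0558) and without aba2-3 replicate 2 or 3, and that of CYP707A2 also without aba2-3 replicate 1. CYP707A1 also missed it with the compared groups alone (edgeR adjusted p = 0.116).

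Downstream, 2 of 19 LEA, dehydrin and cold-regulated genes fell and 0 rose (0 also in DESeq2 and at an unadjusted p under 0.05). The median was −0.35, and it was −0.55 without Col-0 replicate 1. RAB18 (AT5G66400), an ABA-responsive dehydrin, had 2.45, 3.23 and 4.21 CPM in Col-0 and 0.587, 0.545 and 0.264 CPM in aba2-3 (−2.80, SE 0.39, edgeR adjusted p = 1.26e-04). LEA7 had 5.18, 2.14 and 5.95 CPM against 0.555, 0.591 and 0.565 CPM (−2.91, SE 0.48, edgeR adjusted p = 0.00112). Both were separated without overlap and were called in each fit that left out 1 library. RD29A, which also answers cold and salt without ABA, had 788, 781 and 487 CPM in Col-0 and 865, 568 and 760 CPM in aba2-3, which overlap (0.09, edgeR adjusted p = 0.925). Among 12 genes of proline and raffinose metabolism 3 fell and 0 rose, with 0 higher in DESeq2 and 1 higher at an unadjusted p under 0.05. PRODH2, a proline dehydrogenase, had 76.8, 36.2 and 28.0 CPM against 17.7, 15.6 and 14.6 CPM (−1.56, SE 0.27, edgeR adjusted p = 0.00192). GOLS2, a galactinol synthase (−1.59), and P5CDH, which oxidises the product of PRODH2 (−0.92), were the others. GOLS2 missed the threshold without Col-0 replicate 1 (edgeR adjusted p = 0.132) or aba2-3 replicate 3 (0.117). With the compared groups alone, neither GOLS2 nor PRODH2 was called (edgeR adjusted p = 0.12 and 0.0785). P5CDH shares 39.8% of its 50-base words with AT5G62520, so its counts are uncertain to that extent.

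Transcripts of seed storage and maturation genes were at low levels in both genotypes, and their summed level was lower in aba2-3. All 16 tested members had a negative log2 fold change, with a median of −2.26, but only 2 were called and 0 rose (0 also in DESeq2 and at an unadjusted p under 0.05). The summed level of the 16 was 48.0, 30.0 and 54.9 CPM in Col-0 and 18.4, 19.0 and 26.1 CPM in aba2-3. The sums did not overlap. OLEO2, an oil-body oleosin, had 4.05, 3.17 and 7.46 CPM in Col-0 and 0.718, 0.545 and 1.05 CPM in aba2-3 (−2.64, SE 0.67, edgeR adjusted p = 0.0341). SESA4, a 2S albumin, had 1.12, 1.86 and 1.88 CPM against 0.0979, 0.0454 and 0 CPM (edgeR adjusted p = 0.0336). Neither was called without Col-0 replicate 1 (edgeR adjusted p = 0.0645 and 0.0562), Col-0 replicate 3 (0.105 and 0.0520) or any 1 aba2-3 library (0.0551 to 0.196). SESA4 also missed the threshold without Col-0 replicate 2 (0.0637).

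The 12 largest decreases were taken among called genes with a mean of at least 4 CPM and no overlap that were also called without Col-0 replicate 1. They included genes outside the ABA lists. AT3G01345 (chromosome 3, 129138 to 130749, plus strand), annotated only as an uncharacterized protein, had 31.4, 64.1 and 61.8 CPM in Col-0 and 0.163, 0.954 and 0.339 CPM in aba2-3. It was close to absent in aba2-3 (−6.83, SE 0.54, edgeR adjusted p = 7.99e-08). It was at −7.70 without aba2-3 replicate 2. The difference was −6.12 after IAA and −7.06 in mock roots, and ABA left it at −0.02 in Col-0 roots (edgeR adjusted p = 0.981). Of the 12 tested genes among the nearest 10 on each side of it, 0 were called by edgeR or DESeq2 and 1 had an unadjusted p under 0.05. A pair of lipid-transfer-like genes followed. AT2G37870 (chromosome 2, 15859239 to 15859907, plus strand) had 11.1, 4.74 and 7.09 CPM in Col-0 and 0.881, 0.182 and 0.301 CPM in aba2-3 (−3.97, SE 0.47, edgeR adjusted p = 2.62e-05), and was at −4.92 without aba2-3 replicate 1. AT3G53980 (chromosome 3, 19987579 to 19988269, minus strand) had 59.7, 24.1 and 36.8 CPM against 5.68, 4.00 and 5.72 CPM (−2.96, SE 0.36, edgeR adjusted p = 3.02e-05). In Col-0 roots ABA raised them by 2.46 and 2.31 on the log2 scale (edgeR adjusted p = 2.28e-05 and 1.74e-05).

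Further genes among the 12 largest decreases were mostly annotated as enzymes. The alpha/beta-hydrolase gene AT1G73480 had 45.0, 85.6 and 43.2 CPM in Col-0 and 14.0, 10.2 and 7.53 CPM in aba2-3 (−2.45, SE 0.37, edgeR adjusted p = 3.43e-04). It rose by 4.55 on the log2 scale with ABA in Col-0 roots. AT3G23470, annotated as a cyclopropane-fatty-acyl-phospholipid synthase, had 10.5, 8.34 and 9.06 CPM against 3.17, 1.18 and 0.866 CPM (−2.39, SE 0.29, edgeR adjusted p = 3.14e-05), and was at −3.18 without aba2-3 replicate 1. Another alpha/beta-hydrolase gene, AT5G42930, had 28.7, 8.28 and 7.78 CPM against 3.75, 2.32 and 2.82 CPM (−2.32), with the highest value in Col-0 replicate 1. Without that library it was at −1.43 (edgeR adjusted p = 7.12e-04), and it was not called with the compared groups alone (edgeR adjusted p = 0.0807). CXE13, a carboxylesterase, had 14.4, 27.2 and 26.5 CPM against 7.67, 5.77 and 3.65 CPM (−1.99, edgeR adjusted p = 0.00528, and 0.0689 without aba2-3 replicate 3). CYP81D11, a cytochrome P450 known for induction by foreign compounds, had 35.0, 58.6 and 73.6 CPM against 20.5, 17.6 and 11.2 CPM (−1.76, edgeR adjusted p = 3.41e-04). AT1G15330, a CBS-domain protein, was the last at −1.90, beside the wax gene CER1 and the clock genes PRR9 and CCA1 described below.

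The 12 largest increases were chosen by the same rule. MAM3, a methylthioalkylmalate synthase of glucosinolate chain elongation, had the largest among them and is described with its pathway. AT1G78460, a SOUL heme-binding protein, had 11, 6.21 and 7.46 CPM in Col-0 and 40.3, 47.1 and 50.5 CPM in aba2-3 (2.49, SE 0.43, edgeR adjusted p = 0.00159). Prx37, a class III peroxidase, had 12.6, 10.4 and 7.73 CPM against 47.1, 38.2 and 45.6 CPM (2.09, SE 0.32, edgeR adjusted p = 4.07e-04). Prx37 differed by 3.14 after IAA but by 0.01 in mock roots (edgeR adjusted p = 0.995). A pair of genes for defensin-like proteins, small secreted peptides, also rose. AT4G22212 had 95.4, 74.4 and 79.8 CPM against 248, 248 and 295 CPM (1.66, SE 0.28, edgeR adjusted p = 0.00159). AT3G59930 had 24.2, 16.7 and 16.3 CPM against 48.7, 48.2 and 61.7 CPM (1.47, SE 0.25, edgeR adjusted p = 0.00159), though 22.7% of its 50-base words occur in AT5G33355. HXK3, a hexokinase, had 5.18, 3.76 and 3.48 CPM against 11.8, 12.3 and 11.6 CPM (1.52, SE 0.28, edgeR adjusted p = 0.00302).

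The other 6 of the 12 largest increases were AT1G12010, an oxygenase of the 2-oxoglutarate family (2.01), the TIR-domain gene AT1G72920 (1.56), BT2 (1.55), the aminotransferase gene AT1G50110 (1.54), the chitinase-like gene AT4G19720 (1.52) and the cytochrome P450 CYP706A1 (1.41). Words of AT1G72920 are shared with AT1G72940 (17.3%) and of CYP706A1 with AT4G22710 (47.7%). BT2, a BTB and TAZ domain protein of nitrate and sugar responses, had 166, 77.4 and 74.3 CPM in Col-0 and 218, 381 and 330 CPM in aba2-3. It missed the threshold in 4 of the 6 fits, which were those without Col-0 replicate 2 (edgeR adjusted p = 0.124), Col-0 replicate 3 (0.117), aba2-3 replicate 2 (0.152) or aba2-3 replicate 3 (0.13). AT4G19720 missed it in 5, without Col-0 replicate 2 (0.201), Col-0 replicate 3 (0.113) or any 1 aba2-3 library (0.0777 to 0.220), and also with RLE size factors (0.0522), without a filter (0.0565) and with the replicate block (0.0507). With the compared groups alone neither was called (edgeR adjusted p = 0.0785 and 0.0752). Each of the 24 genes had the same sign after IAA, where 9 of the 12 lower and 9 of the 12 higher genes were called.

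**Figure D2:**
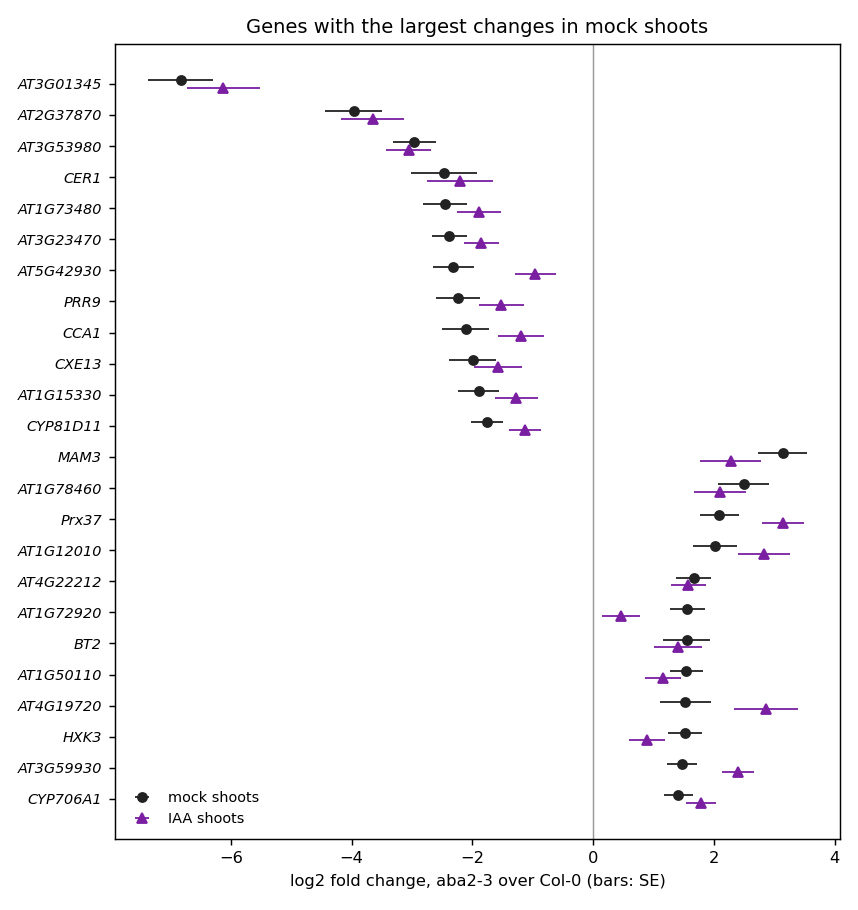
Log2 fold changes of aba2-3 over Col-0 for the 12 largest called decreases and the 12 largest called increases in mock shoots (circles), with the same genes in IAA-treated shoots (triangles); bars are SE. AT3G01345 lies at −6.83 and −6.12, and every gene has the same sign in both treatments.

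Aliphatic glucosinolate genes, which build methionine-derived defence compounds, had more increases than any other list. Of 18 tested, 8 rose and 0 fell, with 0 lower also in DESeq2 and at an unadjusted p under 0.05, and the median was 1.52 (1.4 without Col-0 replicate 1). The 8 that rose had means of at most 5.59 CPM in Col-0. MAM3 (AT5G23020, chromosome 5, 7718121 to 7721839, plus strand) had 1.45, 1.25 and 1.83 CPM in Col-0 and 7.47, 13.7 and 17.9 CPM in aba2-3 (3.14, SE 0.41, edgeR adjusted p = 6.40e-05). BCAT4, the aminotransferase that deaminates methionine at entry to the pathway, had 0.161, 0.0638 and 0.0457 CPM against 0.522, 3.27 and 1.92 CPM (4.43, SE 0.67, edgeR adjusted p = 3.90e-04). It shares 27.9% of its 50-base words with AT3G19700. IPMI2, an isopropylmalate isomerase subunit, had 0.161, 0.393 and 0.457 CPM against 0.946, 3.32 and 3.54 CPM (2.89, SE 0.47, edgeR adjusted p = 0.00106). CYP83A1, which oxidises the aldoximes, had 0.0401, 0.117 and 0.137 CPM against 0.359, 1.73 and 2.11 CPM (3.70, SE 0.71, edgeR adjusted p = 0.00453). In these 4 the genotypes did not overlap, and aba2-3 replicate 1 was the lowest of its group in each. BCAT4 was at 3.79 without aba2-3 replicate 2, and CYP83A1 at 3.08 with organ covariates. IPMI2 and CYP83A1 were not called with the compared groups alone (edgeR adjusted p = 0.0546 and 0.0577).

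MYB28, the main transcription factor of the pathway, had 5.34, 5.93 and 5.49 CPM in Col-0 and 11.4, 16.4 and 13.5 CPM in aba2-3 (1.30, SE 0.33, edgeR adjusted p = 0.0307), and in only 1 of the 6 leave-one-out fits was it called. IPMI1 (2.85), IMD1 (2.05) and CYP79F2 (4.01) completed the 8. UGT74C1, a glucosyltransferase of a later step, had 4.54, 9.58 and 14.8 CPM against 15.9, 18.9 and 17.4 CPM (edgeR adjusted p = 0.498). Between 4 and 8 of the genes were called when 1 library was left out, with 5 without any 1 Col-0 library or without aba2-3 replicate 3, and 4 without aba2-3 replicate 2. After IAA 1 was called higher, which was MAM3, and in mock roots 13 were called higher. Of 12 indole glucosinolate genes 1 rose, the methyltransferase IGMT1 (1.68), and 1 fell, the activator MYB34 (−0.96), and 0 of 12 were called without Col-0 replicate 1, where the adjusted p was 0.0562 and 0.0738. IGMT1 was not called with the compared groups alone either (edgeR adjusted p = 0.0656).

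**Figure D3:**
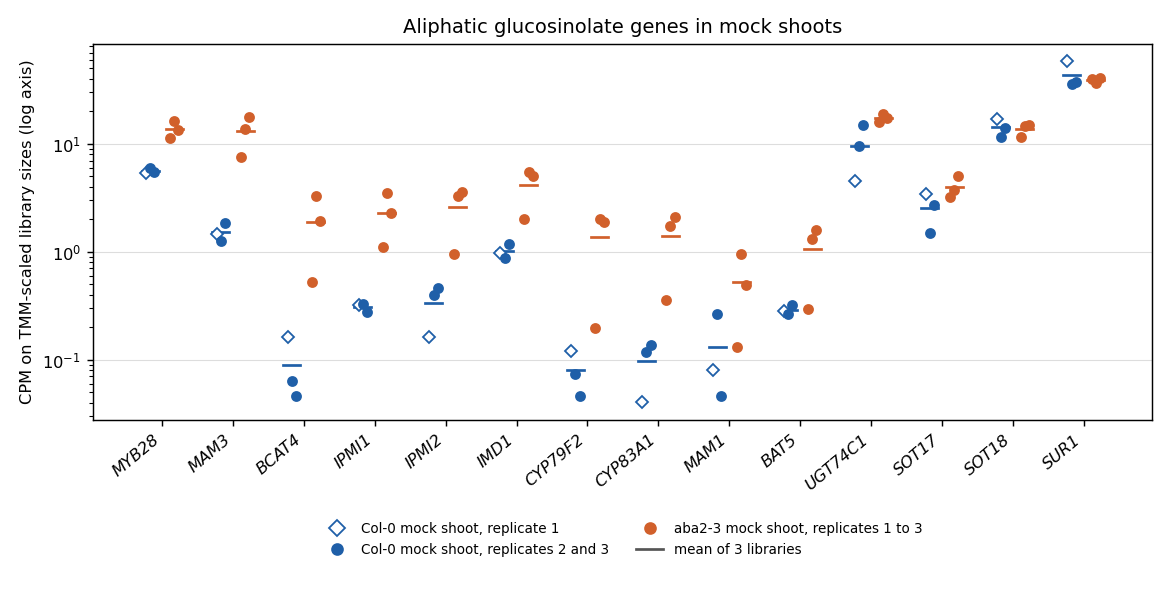
Levels of 14 aliphatic glucosinolate genes in the mock shoot libraries, in CPM on a log axis. Each point is a library, bars are means of 3, and open diamonds mark Col-0 replicate 1. The first 8 genes were called higher in aba2-3, from MYB28 (11.4 to 16.4 CPM against 5.34 to 5.93 CPM) to CYP83A1, and the last 6 were not called.

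Wax genes serve the cuticle, the outer layer that limits water loss. Of 15 tested, 2 fell and 0 rose (0 also in DESeq2 and at an unadjusted p under 0.05), 14 had a negative log2 fold change and the median was −0.64. In 12 of the 15 every aba2-3 library lay below every Col-0 library, against 11.6% of all genes tested. CER1, which forms the alkanes of the wax (chromosome 1, 418748 to 422438, plus strand), had 258, 230 and 232 CPM in Col-0 and 61.9, 37.0 and 30.8 CPM in aba2-3 (−2.47, SE 0.55, edgeR adjusted p = 0.0128). CER4, an alcohol-forming reductase, had 9.23, 4.80 and 5.40 CPM against 1.63, 0.954 and 0.113 CPM (−2.82, SE 0.59, edgeR adjusted p = 0.00898). Both calls were lost without aba2-3 replicate 2 (edgeR adjusted p = 0.108 and 0.0598) or aba2-3 replicate 3 (0.115 and 0.0642), and that of CER4 with the compared groups alone (0.0785). Without aba2-3 replicate 1 CER4 was at −3.64. CER3, the partner of CER1, had 351, 369 and 382 CPM against 291, 226 and 220 CPM, without overlap but not called (−0.58, edgeR adjusted p = 0.571).

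Wall-loosening genes, the expansins and the xyloglucan enzymes (XTHs), had a median of −0.41, and 3 of 28 fell and 1 rose. XTH5 had 21.8, 16.9 and 18.6 CPM in Col-0 and 6.92, 5.04 and 5.57 CPM in aba2-3 (−1.70, SE 0.23, edgeR adjusted p = 9.15e-05). XTH5 differed by −2.05 after IAA and by 0.18 in mock roots (edgeR adjusted p = 0.716). EXPA11 had 164, 127 and 112 CPM against 66.9, 54.5 and 54.8 CPM (−1.19, SE 0.24, edgeR adjusted p = 0.00560), with an adjusted p of 0.0622 and 0.0540 without aba2-3 replicate 2 or 3. XTH30 (−0.83) and XTH28 (0.64) were the others, and neither was called without Col-0 replicate 1 (edgeR adjusted p = 0.270 and 0.180) or with the compared groups alone (0.172 and 0.0841). XTH28 also missed the threshold without a filter (edgeR adjusted p = 0.0544). Of 14 auxin-inducible genes, GH3.1, an IAA-conjugating enzyme, fell (−1.40, edgeR adjusted p = 0.0217, 0.210 without Col-0 replicate 1 and 0.17 with the compared groups alone), and 0 rose (0 also in DESeq2 and at an unadjusted p under 0.05).

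Photosynthesis genes pointed upward without a call. All 26 nuclear genes for light harvesting, photosystems and Rubisco had a positive log2 fold change, with a median of 0.77, but 0 were called by edgeR or DESeq2 and 0 had an unadjusted p under 0.05. Their summed level was 33946, 88283 and 93262 CPM in Col-0 and 84992, 135589 and 104274 CPM in aba2-3. The groups overlapped, Col-0 replicate 1 was the lowest by far, and the median without it was 0.42. Of 16 chlorophyll biosynthesis genes 0 were called (0 in DESeq2 and 0 at an unadjusted p under 0.05), with a median of 0.26, and −0.03 without Col-0 replicate 1. Of 12 genes of light signalling and growth in darkness 1 fell and 1 rose. HY5, the bZIP factor of de-etiolation, had 109, 120 and 100 CPM in Col-0 and 69.8, 71.3 and 62.3 CPM in aba2-3 (−0.70, SE 0.15, edgeR adjusted p = 0.0120). PIL1, a bHLH protein of the shade response, had 4.98, 12.8 and 10.8 CPM against 29.7, 29.7 and 32.0 CPM (1.67, SE 0.42, edgeR adjusted p = 0.0307). HY5 missed the threshold without Col-0 replicate 2, aba2-3 replicate 2 or aba2-3 replicate 3 (edgeR adjusted p = 0.0526, 0.0509 and 0.103), or with the compared groups alone (0.0592), and PIL1 without Col-0 replicate 1 or 3 (0.171 and 0.0574) or aba2-3 replicate 2 or 3 (0.109 and 0.13).

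The morning genes CCA1, LHY and PRR9 of the circadian clock fell in aba2-3. Their list was chosen after its values had been seen. Of 11 clock genes 3 fell and 0 rose (0 also in DESeq2 and at an unadjusted p under 0.05), and the same 3 were called in every fit that left out 1 library. CCA1 was not called with the compared groups alone (edgeR adjusted p = 0.0691). CCA1 had 41.9, 96.8 and 70.4 CPM in Col-0 and 24.8, 16.4 and 7.31 CPM in aba2-3 (−2.11, SE 0.39, edgeR adjusted p = 0.00302). LHY, its close relative, had 30.4, 59.3 and 51.6 CPM against 19.7, 14.2 and 13.3 CPM (−1.58, SE 0.27, edgeR adjusted p = 0.00172). PRR9, a repressor of both, had 20.5, 26.3 and 16.6 CPM against 6.36, 4.27 and 2.75 CPM (−2.24, SE 0.37, edgeR adjusted p = 0.00107), and shares 36.0% of its 50-base words with AT2G46670. No aba2-3 library reached a Col-0 library in any of the 3. The labels give no hour of harvest, and whether it differed between the genotypes was not tested.

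Among the other hormone lists, 4 of 10 tested jasmonate genes fell and 0 rose (0 also in DESeq2 and at an unadjusted p under 0.05), with a median of −0.84. OPR3, a reductase of jasmonate synthesis, had 342, 161 and 134 CPM in Col-0 and 114, 101 and 82.8 CPM in aba2-3 (−1.09, SE 0.24, edgeR adjusted p = 0.0126). VSP1, a vegetative storage protein, had 6.70, 5.15 and 4.71 CPM against 1.21, 1.14 and 0.904 CPM (−2.34, SE 0.60, edgeR adjusted p = 0.0356). AOS (−0.86) and the bHLH factor MYC2 (−0.81) were the others. None of the 4 was called without Col-0 replicate 1, where their adjusted p was 0.103 to 0.185, nor without aba2-3 replicate 2 or 3. AOS, OPR3 and MYC2 were not called with the compared groups alone either (edgeR adjusted p = 0.0877, 0.167 and 0.0785). Of 16 ethylene genes 2 rose, ACO4 of ethylene synthesis (0.84) and the receptor gene ERS1 (0.54), and neither was called without Col-0 replicate 1 (edgeR adjusted p = 0.227 and 0.240), without a filter (0.0585 and 0.108) or with the compared groups alone (0.1000 and 0.118), and ERS1 was not called with RLE size factors (0.0518). For salicylic acid and defence 0 of 12 were called in edgeR and DESeq2 (1 higher and 1 lower at an unadjusted p under 0.05), and for hypoxia 0 of 9 (3 higher unadjusted, 0 in DESeq2).

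**Figure D4:**
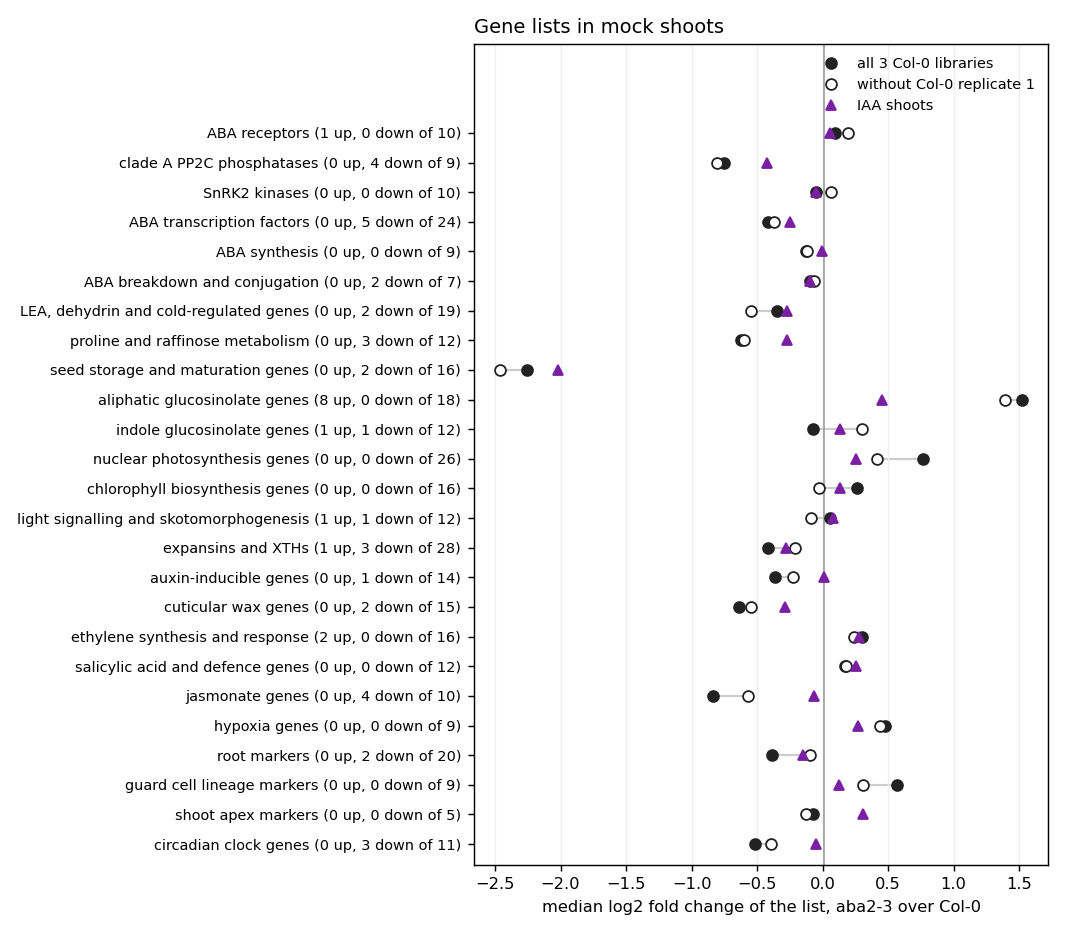
Median log2 fold change, aba2-3 over Col-0, of 25 gene lists with all mock shoot libraries (filled circles), without Col-0 replicate 1 (open circles) and in IAA-treated shoots (triangles); the line is the median of all genes tested, and labels give the genes called. Seed genes lie at −2.26 and aliphatic glucosinolate genes at 1.52, and photosynthesis genes move from 0.77 to 0.42 when Col-0 replicate 1 is left out.

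Marker genes of other organs and cell types were read beside these groups. Of 20 root markers 2 fell, the endodermal CASP5 (−0.94) and the tonoplast aquaporin TIP2-3 (−0.97, edgeR adjusted p = 0.135 with the compared groups alone), and 0 rose (0 also in DESeq2 and at an unadjusted p under 0.05). The summed root markers were 12206, 8316 and 7949 CPM in Col-0 and 7972, 6280.0 and 7317 CPM in aba2-3. Their median was −0.38, and −0.10 without Col-0 replicate 1. The wider root signature had 2 of its 43 genes called higher and a median of 0.40 (0.87 without Col-0 replicate 1). Its genes were chosen by their levels in aba2-3, which favours genes higher in that genotype. In mock roots it stood at 96.6% to 113% of its root level in aba2-3 and at 78.2% to 80.1% in Col-0. Its direction in shoots therefore does not tell the amount of root RNA. Organ-preferential genes were those called with a log2 difference of at least 3 between organs after IAA, in both genotypes. Root-preferential were 9 of the 189 genes called higher (4.76%) and 5 of the 394 called lower (1.27%), against 4.24% of all tested. Without Col-0 replicate 1 these were 11 of 96 (11.5%) and 0 of 173. Shoot-preferential then were 0 of the 96 and 2 of the 173 (1.16%), against 6.71% of all tested. Guard cell lineage markers summed to 43.5, 95.8 and 76.9 CPM in Col-0 and 93.5, 113 and 110 CPM in aba2-3, and 0 of 9 were called (0 in DESeq2 and 0 at an unadjusted p under 0.05). Shoot apex markers summed to 53.4, 84.5 and 70.5 CPM and to 55.5, 53.1 and 45.4 CPM. Of 5 tested 0 were called, with CLV1 lower in DESeq2 and at an unadjusted p under 0.05. Without Col-0 replicate 1, 1 of the 5 was called lower in edgeR. WUS, the defining marker of the stem-cell niche, was at 0 in 4 of the 6 libraries. The part of organ makeup in the gene groups above was not tested, apart from the values without Col-0 replicate 1 and a fit with the share of the other organ's signature in each library as covariates. That fit called 754 genes in mock shoots and kept 549 of the 583 calls. Of the named genes only ERS1 lost its call (edgeR adjusted p = 0.0590). For shoot libraries the covariate was the root share alone, so the fit did not adjust for the low shoot signature of Col-0 replicate 1.

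The same genotypes were then compared in shoots after IAA, in 6 libraries that are not in the mock contrast. Both comparisons share the spread per gene estimated over all 30 libraries. There 257 genes (1.16%) were called. They shared 136 genes with the mock shoots, 45 higher and 91 lower in both, which is 23.3% of the mock calls and 52.9% of the IAA calls, and all 136 had the same direction. Of the genes called higher in mock shoots, 184 of 189 had a positive log2 fold change after IAA (97.4%), and of those called lower 382 of 394 had a negative one (97.0%), against 49.98% and 49.83% of all genes tested. The median sizes were 0.61 and −0.56 after IAA, beside 0.96 and −0.93 in mock shoots, where the genes had been selected. Without Col-0 mock shoot replicate 1 the counts were 94 of 96 and 171 of 173. The IAA calls too depended on single libraries, from 78 without aba2-3 IAA shoot replicate 3, 95 without Col-0 IAA shoot replicate 2 and 129 without aba2-3 IAA shoot replicate 2 to 227, and the shared genes kept the same direction in each. A test of the difference between treatments called 1 gene (0.00451%), with 903 (4.08%) at an unadjusted p under 0.05 and 2 in DESeq2.

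**Figure D5:**
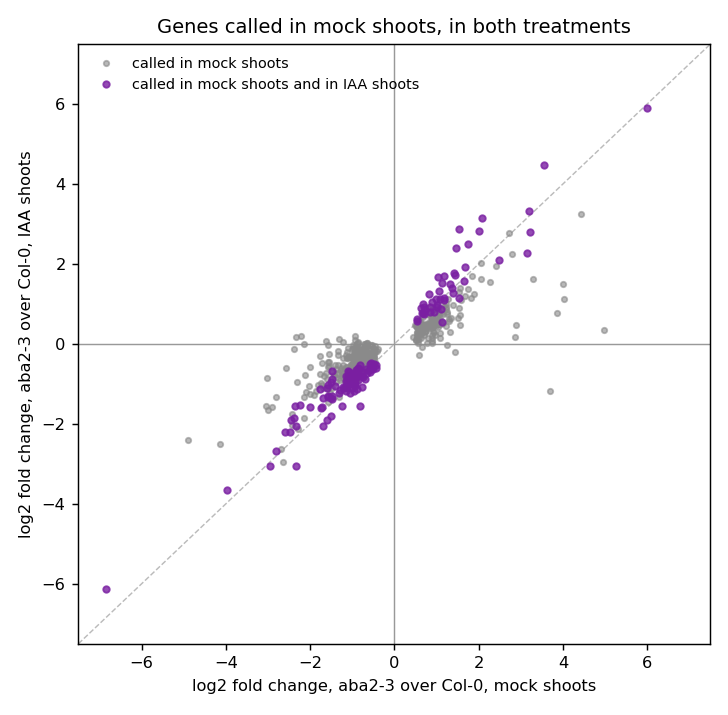
Log2 fold changes of aba2-3 over Col-0 for the 583 genes called in mock shoots, in mock shoots (horizontal) and in IAA-treated shoots (vertical); purple points are the 136 also called after IAA and the dashed line marks equal values. Points fill the lower left and upper right, with 184 of 189 genes called higher above 0 and 382 of 394 called lower below 0.

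In mock roots, a comparison that also shares no library with the mock shoots, 1592 genes were called (7.19%). Of the genes called higher in shoots, 53 were called higher in roots (28.0%, against 3.26% of all genes) and 1 lower. Of those called lower in shoots, 78 were called lower in roots (19.8%, against 3.92%) and 10 higher. Of the ABA genes, PP2CA was lower in roots by −1.04 and ABI2 by −1.13, whereas AFP3 was at −0.11 and ABF3 at −0.14 (edgeR adjusted p = 0.741 and 0.702). The difference between organs was itself tested, and 341 genes were called (1.54%).

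Col-0 roots treated with ABA gave a separate reading of which genes respond to the hormone, since they share no library with the mock shoots. There 3480 genes were called (15.7%), 8.31% higher and 7.4% lower after ABA. Of the 394 genes lower in aba2-3 shoots, 130 rose with ABA in roots (33.0%) and 25 fell (6.35%). Of the 189 genes higher in aba2-3 shoots, 66 fell with ABA in roots (34.9%) and 12 rose (6.35%). These shares were 41.0% and 43.8% without Col-0 mock shoot replicate 1, and ran from 27.2% to 43.0% and from 23.5% to 53.5% when any 1 mock shoot library was left out. All 9 PP2C genes and 21 of the 24 transcription factors rose with ABA in roots, as did 16 of 19 LEA and cold-regulated genes, while 6 of 10 receptors fell and 2 rose, and 1 transcription factor fell. In Col-0 shoots, where ABA changed 2137 genes (9.65%), 8 PP2C genes, 21 transcription factors and 18 LEA and cold-regulated genes rose (4.98% of all genes) and 6 receptors fell (4.67%), with 1 receptor higher. That comparison uses the same Col-0 mock shoots as controls, so its values are only set beside those of the genotype. Of the 18 aliphatic glucosinolate genes, 1 rose with ABA in roots and 2 fell, among them MYB28 (−3.37, edgeR adjusted p = 1.90e-07).

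Over the whole series, few genes parted all 12 aba2-3 libraries from all 18 Col-0 libraries whatever the organ or treatment. There were 2 with every aba2-3 value lower (0.00903% of genes tested) and 3 with every value higher (0.0135%), of which 2 reached a mean of 4 CPM. AT3G01345 had a median of 0.334 CPM in aba2-3 and 53.9 CPM in Col-0. AT4G33550, a further lipid-transfer-like gene, had medians of 4.72 and 21.2 CPM, with a highest aba2-3 value of 11.1 CPM just below the lowest Col-0 value of 11.8 CPM. BCAT4 had medians of 4.38 CPM in aba2-3 and 0.0826 CPM in Col-0, with a lowest aba2-3 value of 0.400 CPM just above the highest Col-0 value of 0.309 CPM. RSU1 (AT3G48130), a transcribed pseudogene, had 4.08 and 0.515 CPM, with 3.23 to 8.68 CPM in aba2-3 and 0.198 to 1.23 CPM in Col-0.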

How the data were processed

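RNA was measured in 30 bulk libraries, with 10 groups of 3. RNA extraction used RNeasy columns and cDNA synthesis a SMARTer kit, per the labels' protocols. Per the submitters' processing notes, the tools were STAR, Subread, featureCounts, edgeR and limma and the build was TAIR10; roles, versions and the use of strand are not given in the sources used here. The authors deposited, per gene, a whole-number count, a CPM value and an RPKM value. In 30 of 30 files the deposited CPM equals the count scaled to the library's summed counts, and the deposited RPKM equals that CPM per kilobase of exon.

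Groups were read from titles, with Col-O taken as Col-0. Counts of all 30 libraries were fitted in edgeR 4.0.16 (R 4.3.3, limma 3.58.1; TMM, filterByExpr, 22156 genes kept, 1 mean per group, two-sided quasi-likelihood F test), and p-values were adjusted over all genes within a comparison. SE was obtained by dividing the size of a log2 fold change by the root of its F. The scripts were tested on simulated counts. Replicates differed by more than sampling noise, so none were merged.

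The comparison, its members and the 24 gene lists were chosen with earlier results of these data known; the clock list was added later. Lists are described by counts and medians, with no test of a list. Named are the 12 largest called increases and decreases (mean of at least 4 CPM, no overlap, called also without Col-0 mock shoot replicate 1), up to 4 called members per list, interaction genes, and genes that part all libraries by genotype. Other genes were named after their values were seen. Signature genes of an organ were defined in aba2-3 after IAA, by a median over 20 CPM there and less than 1/50 of it in the opposite organ. Of 33602 identifiers in the files 32835 are in RefSeq TAIR10.1, from which promoter windows were read; 10599 have the same start and end there, and 98.63% of the files' introns have splice sites in its genome. Alternatives were RLE size factors, DESeq2 1.42.0, other filters, a 2-fold minimum, the compared groups alone, a replicate block, organ covariates and each library left out; the fit without both libraries richest in root signature was added after seeing the data.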

Additional observations from a re-analysis of the deposited data

Results flagged for a closer look

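The genotype difference itself differed between treatments in 1 gene and between organs in 341 by an interaction test (edgeR, adjusted over all genes). The first and, of the second, the 3 largest in each direction with a mean of at least 4 CPM are given; values are CPM means ± SD of 3 libraries. AT1G08050, a RING-type zinc finger gene, differed between mock and IAA shoots by −1.493 on the log2 scale (SE 0.23, edgeR adjusted p = 0.0173). It stood at 10.1 ± 0.778 CPM in aba2-3 and 11 ± 3.17 CPM in Col-0 mock shoots, and at 12.2 ± 1.16 and 4.68 ± 0.361 CPM after IAA.

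The other 6 differed between mock shoots and mock roots, with the interaction given as shoot minus root. AT5G52710, a copper transport family gene, had an interaction of 4.052 (SE 0.70, edgeR adjusted p = 0.00553): its mean was 3.24 CPM in aba2-3 and 0.441 CPM in Col-0 shoots, and 8.07 and 20.2 CPM in roots. MAC3A, a splicing-associated ubiquitin ligase, had 3.958 (SE 0.83, edgeR adjusted p = 0.0160), with 500 and 340 CPM in shoots and 138 and 1455 CPM in roots, where the Col-0 SD was 662. TADA, a tRNA deaminase, had 3.524 (SE 0.61, edgeR adjusted p = 0.00454), with 70.1 and 60.9 CPM in shoots and 28.8 and 288 CPM in roots, where the Col-0 SD was 178.

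AT3G41768, a ribosomal RNA gene, had −2.831 (SE 0.29, edgeR adjusted p = 1.2e-05), with 200 and 298 CPM in shoots and 666 and 140 CPM in roots; 94.3% of its 50-base words occur in AT2G01010, so its counts are uncertain. GPT2, a plastid glucose phosphate transporter, had −2.749 (SE 0.66, edgeR adjusted p = 0.032), with 8.90 and 14.3 CPM in shoots and 11 and 2.66 CPM in roots. CXE13 had −2.638 (SE 0.56, edgeR adjusted p = 0.019), with 5.70 and 22.7 CPM in shoots and 3.79 and 2.48 CPM in roots. Causes were not tested.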

How the results depend on the processing

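The count of mock shoot calls (583) was 580 with RLE size factors, 433 without a filter, 603 with genes kept from a mean count of 20 upward, and 754 with organ covariates. It was 1190 with DESeq2 (5.37%), 9 with a 2-fold minimum, 291 with the compared groups alone and 89 without both Col-0 replicate 1 and aba2-3 replicate 3. Leaving out 1 library gave 143 to 689. IAA shoots (257) gave 662 with DESeq2, 160 without a filter, 9 with a 2-fold minimum, 556 with the groups alone, 164 with organ covariates and 78 to 227 with 1 library left out. Mock roots (1592) gave 2438 with DESeq2, 34 with a 2-fold minimum and 552 to 1419 with 1 library left out. The treatment interaction (1) gave 2 with DESeq2 and 0 without a filter, with a 2-fold minimum or with the groups alone, and 0 to 2 with 1 library left out. The organ interaction (341) gave 994 with DESeq2, 202 without a filter, 1 with a 2-fold minimum, 116 with the groups alone and 79 to 370 with 1 library left out. The cause of these moves was not tested, except that a 2-fold minimum asks for a larger change and leaving libraries out removes samples. Of 64 named genes under 15 alternatives, none changed direction. The 64 include ABA2, which was not called in the main fit. DESeq2 lost 0 calls of named genes, organ covariates 1, the compared groups alone 25 and the 2-fold minimum 56. The compared groups alone kept 184 of all 583 calls. With Col-0 replicate 1 and aba2-3 replicate 3 both out, 36 named genes lost their call. Deviations of same-numbered mock shoots correlated at r = 0.22, 0.33 and −0.06, and those of differently numbered ones at −0.46 to 0.38. So few pairs cannot tell whether equal numbers share a batch, which the labels do not say. The replicate block gave 620 calls in mock shoots, 275 in IAA shoots, 1624 in mock roots, 1 and 365 for the interactions. What depth limits was not tested.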
